A study of Mus musculus with 8 samples.

Results

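The let-7 microRNA (miRNA) family was followed in small RNA libraries of MIN6B1 cells, a line derived from a mouse insulinoma, a tumour of the insulin-producing beta cells. Its members were taken by annotation, as every distinct read sequence that carries the mature name let-7a, b, c, d, e, f, g or i with the ending -5p, or let-7d-3p. These were 154 of the 11568 distinct sequences listed, out of 652 that carry any mature miRNA name. The 8 libraries formed 4 groups of 2. Cells were transfected with either the CTRL plasmid or a plasmid that expresses the HENMT1ΔC-T6B methyltransferase, and the RNA of each was taken either non-oxidized or oxidized with NaIO4 (sodium periodate). The share of cells that took up a plasmid is not given in the sources used here. Nor do they say whether the 2 replicates of a group came from separate cultures, so the tests measure the spread between these libraries, which may be technical.

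The let-7 miRNAs were among the first to be described. They are abundant in differentiated tissues, where they repress genes of growth and of the embryonic state such as Lin28a, Lin28b and Hmga2, and LIN28 proteins in turn block the processing of let-7 precursors. A mature miRNA is carried by an Argonaute protein and finds its targets mainly through its seed, bases 2 to 8. HENMT1 is an enzyme that adds a methyl group to the 2′ oxygen of the last nucleotide of small RNAs, and T6B is a peptide of TNRC6B that binds Argonaute. Periodate attacks an RNA whose 3′ end carries free 2′ and 3′ hydroxyl groups and leaves an end to which a library adapter cannot be joined, while a methylated end is spared. The comparison of the oxidized libraries therefore asks which let-7 sequences were kept from oxidation by the methyltransferase.

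The mature sequences show how alike the members are, and how few bases tell them apart. They are printed from RefSeq (GRCm38.p6), 5′ to 3′, with the seed in capitals.
mmu-let-7a-5p: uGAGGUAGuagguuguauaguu
mmu-let-7b-5p: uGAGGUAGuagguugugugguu
mmu-let-7c-5p: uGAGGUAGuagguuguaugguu
mmu-let-7d-5p: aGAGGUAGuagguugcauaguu
mmu-let-7e-5p: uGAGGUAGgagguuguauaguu
mmu-let-7f-5p: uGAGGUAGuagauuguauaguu
mmu-let-7g-5p: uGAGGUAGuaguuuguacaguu
mmu-let-7i-5p: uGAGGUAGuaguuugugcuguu
mmu-let-7d-3p: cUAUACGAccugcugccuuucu
All 8 members from the 5′ arm share 1 seed, GAGGUAG. The passenger strand let-7d-3p, cut from the other arm of the let-7d hairpin, has the seed UAUACGA. Counting from 1 at the 5′ end and with the let-7a base first, let-7c differs from let-7a by A19G, let-7e by U9G and let-7f by G12A. The changes from let-7a are A17G and A19G in let-7b, U1A and U16C in let-7d, and G12U and U18C in let-7g. let-7i stands 4 changes away from let-7a and only A17G and A19U away from let-7g.

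In the GRCm38 genome the members lie at 11 places, named here with the genes that GENCODE M21 annotates over them. let-7a is encoded at chr13:48538239-48538260 on the minus strand, in an exon of the long noncoding RNA 6720427I07Rik, and again at chr9:41536732-41536753 on the plus strand, in introns of 3110039I08Rik and Gm49317. The first of these is part of a cluster: let-7f lies next to it at chr13:48537889-48537910, and let-7d-5p and let-7d-3p at chr13:48536078-48536099 and chr13:48536024-48536045, all in exons of the same noncoding RNA. A second copy of let-7f sits at chrX:151912353-151912374 on the plus strand, in an intron of Huwe1. let-7b (chr15:85707325-85707346) and 1 copy of let-7c (chr15:85706616-85706637) lie on the plus strand in exons of Lncppara, and the other copy of let-7c at chr16:77599672-77599693 in an intron of Mir99ahg. let-7e (chr17:17830366-17830387) lies in an intron of Spaca6 and let-7g (chr9:106178846-106178867) in an intron of Wdr82, both on the plus strand. let-7i lies at chr10:122985698-122985719 on the minus strand, in an exon of the transcribed pseudogene D630033A02Rik. Mature sequences from paired copies are identical, so reads cannot be given to one copy or the other.

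The listed sequences summed to between 2446036 and 6641250 counts per library, except in oxidized control RNA, where they summed to 438363 and 295094. A count of 0 there allows a share of up to 0.000684% and 0.00102% of listed counts (3 counts of the total), and floors of this kind cover counting error only. Only sequences with at least 2 counts in each oxidized methyltransferase library, and 10 in their sum, are in the table, so a let-7 sequence that oxidation removed from these libraries could not be listed. Replicates differed beyond sampling noise in all 4 groups (chi-square per degree of freedom 11.35 to 19.73), and each was counted as 1 sample. The beta cell miRNAs miR-375-3p, miR-7a-5p and miR-153-3p were all present. Of 14 markers of other cell types 3 had a listed sequence (miR-122-5p of liver, miR-126a-3p of endothelium and miR-124-3p of neurons). Together these summed to 726 to 1226 counts in non-oxidized libraries, 0 in both oxidized control libraries, and 87 and 46 in oxidized methyltransferase RNA. Their part in the results was not tested, and in bulk RNA fewer cells of a type and less RNA per cell cannot be told apart.

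let-7 made up at least 50.6% of the mature miRNA counts in every library. Its share was 51.7% and 54.0% in non-oxidized control RNA and 58.8% and 50.6% in oxidized control RNA. With the methyltransferase it was 59.6% and 61.9% before oxidation and 82.1% and 80.1% after it. The share in oxidized methyltransferase RNA, 81.1% ± 1.43 (SD, n = 2), lay above every library of the other groups and 20.38 percentage points above the mean of non-oxidized methyltransferase RNA, 60.72% ± 1.60 (SD, n = 2). Oxidation of control RNA left the 2 shares overlapping, at 54.69% ± 5.80 (SD, n = 2) against 52.84% ± 1.59 (SD, n = 2) before it. An exact two-sided permutation test of 2 libraries against 2 cannot go below p = 0.33, which the other 3 comparisons of the share reached (Benjamini-Hochberg adjusted p = 0.444 over 4 comparisons). As a share of all listed counts, let-7 fell from 34.66% ± 1.29 (SD, n = 2) to 1.79% ± 0.0798 (SD, n = 2) on oxidation of control RNA, with no overlap. In methyltransferase RNA it was 37.63% ± 1.34 (SD, n = 2) without oxidation and 53.99% ± 0.255 (SD, n = 2) with it. The oxidized control libraries held only 13772 and 10115 mature miRNA counts. The most abundant sequences of the 9 members alone made up 6.25% ± 0.696 (SD, n = 2) of these, against 42.66% ± 0.941 (SD, n = 2) in non-oxidized control RNA.

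The 8 members of the 5′ arm differed more than 20-fold in level in every library, and outside oxidized control RNA their order was nearly fixed. For each, the most abundant listed sequence, called its main sequence here, was the 22-nucleotide RefSeq form, and levels are given as counts per 1000000 listed counts (CPM), with replicates 1 and 2 of a group in that order. mmu-let-7c-5p was the most abundant, at 107581 and 110966 CPM in non-oxidized control RNA, 122800 and 132761 in non-oxidized methyltransferase RNA, 643 and 813 in oxidized control RNA and 206367 and 220829 in oxidized methyltransferase RNA. mmu-let-7b-5p stood at 52693 and 51213 CPM, 59976 and 60428, 611 and 715, and 90565 and 79146 in the same order of groups. mmu-let-7a-5p stood at 36257 and 39696 CPM, 37069 and 37986, 203 and 278, and 40824 and 42851. In these 3 the oxidized control libraries were far below all others, and the oxidized methyltransferase libraries were above both non-oxidized groups.

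For mmu-let-7f-5p the values were 25159 and 26786 CPM, 23350 and 23606, 116 and 169, and 20031 and 20541. mmu-let-7g-5p had 23751 and 26759 CPM, 19699 and 20654, 34.2 and 105, and 13739 and 14091. Both members were lower in oxidized methyltransferase RNA than in either non-oxidized group, on this scale, with no overlap. mmu-let-7i-5p had 17624 and 17935 CPM, 18896 and 19173, 132 and 152, and 30242 and 23925, and so was highest in oxidized methyltransferase RNA. mmu-let-7d-5p had 7178 and 7239 CPM, 6685 and 6406, 45.6 and 64.4, and 6252 and 6636. The lowest member of the 5′ arm, mmu-let-7e-5p, had 3864 and 5004 CPM, 3817 and 4820, 22.8 and 13.6, and 3812 and 4936, and its 2 non-oxidized groups and the oxidized methyltransferase group overlapped. In order of level, let-7f and let-7g did not differ beyond their spread in non-oxidized control RNA, and all other neighbours did. In oxidized methyltransferase RNA let-7i lay above let-7f and let-7g, where without oxidation it lay below both. In oxidized control RNA, at low counts, let-7i lay above let-7g in both libraries. In replicate 1 of that group let-7i also lay above let-7f (132 against 116 CPM), and let-7d above let-7g (45.6 against 34.2 CPM).

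**Figure D1:**
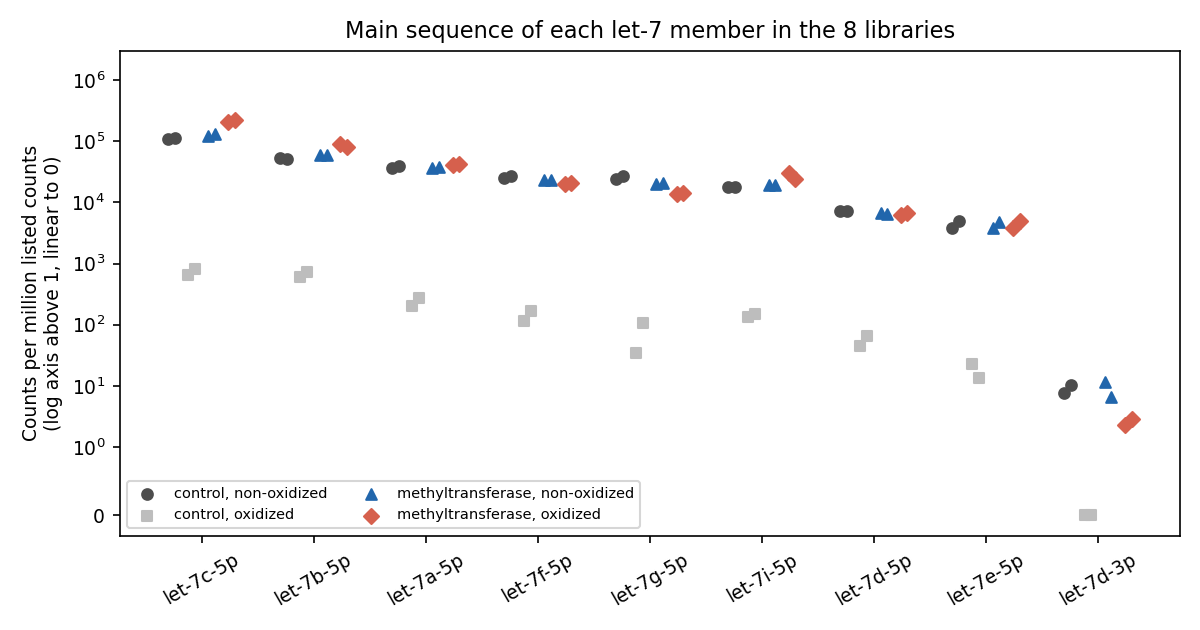
CPM (log axis, linear between 0 and 1) of the main sequence of each let-7 member in each of the 8 libraries, with 1 point per library. The oxidized control libraries lie far below the others for every member of the 5′ arm, at 813 CPM or less, while oxidized methyltransferase RNA stays near the non-oxidized level. let-7d-3p had 0 counts in oxidized control RNA, and its levels in the other groups lie near or under what a count of 0 allows there.

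let-7d-3p, the only let-7 passenger strand listed, was rare. Its single listed sequence, 21 nucleotides and 1 base short of the RefSeq 3′ end, had 42 and 70 counts before and 0 and 0 after oxidation of control RNA, and 42 and 32 before and 7 and 7 after oxidation of methyltransferase RNA. Per listed count, its level in oxidized methyltransferase RNA lay under what a count of 0 allows in the oxidized control libraries, and its non-oxidized control level was near that floor, so no fold is given. The other strand of the same hairpin, let-7d-5p, kept 19387 and 16233 counts in oxidized methyltransferase RNA.

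The main comparison set the plasmids against each other in oxidized RNA. The main sequences of all 8 members of the 5′ arm were higher with the methyltransferase, by a log2 fold change of 9.90 (SE 0.51) for let-7d-5p to 11.22 (SE 0.55) for let-7c-5p, with adjusted p-values from 5.1e-07 to 8.14e-07 (edgeR quasi-likelihood test). These sizes depend on the scaling: with total counts they ran from 6.89 to 8.20, and in a fit of miRNA sequences alone from 5.76 to 7.07. Behind these folds stand 4 to 282 counts per main sequence in oxidized control RNA and 11821 to 639939 in oxidized methyltransferase RNA. let-7d-3p was also called higher (adjusted p = 0.0022), a call lost with total counts (adjusted p = 0.0754) and with miRNA sequences alone (adjusted p = 0.244). Among all let-7 sequences, 140 of 154 passed the filter on low counts, 113 of these were higher and 0 were lower, where 42.3% of the 9851 sequences tested in the whole table were higher and 3.92% lower. The median log2 fold change of the 140 was 6.83, or 3.99 with 79 sequences at their bound because both oxidized control libraries held 3 counts or fewer. For all 607 mature miRNA sequences tested the median was 6.49, and for all sequences 0.82. Scaled to total counts 82 let-7 sequences were higher and 26 lower, and in a fit of miRNA sequences alone 62 were higher and 29 lower, but the 8 main sequences were called higher under every scaling. For scalings other than TMM, here and in the comparisons below, the share of all sequences called is not given. Those counts therefore do not set let-7 against the other sequences. In the authors' deposited table the same main sequences were 1140-fold (let-7d-5p) to 2820-fold (let-7c-5p) higher in oxidized methyltransferase than in oxidized control RNA.

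Without oxidation the plasmids gave no call. The log2 fold change of the 8 main sequences ran from -0.85 (SE 0.45, let-7g-5p) to -0.29 (SE 0.36, let-7c-5p), with adjusted p-values of at least 0.634 by edgeR. None of the 140 let-7 sequences tested was called, as in the whole table (0%), and neither was any by DESeq2. Without adjustment, 0 were higher and 6 lower at p under 0.05, beside 392 higher and 466 lower of all 9851 sequences tested. The sign of these small differences turned for 8 of the 9 main sequences in a fit of miRNA sequences alone, the exception being let-7g-5p.

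Oxidation of control RNA removed the full-length forms. The main sequences fell by a log2 fold change of -10.72 (SE 0.52, let-7b-5p) to -12.97 (SE 0.73, let-7g-5p), or from -6.29 to -8.53 with total counts and from -4.46 to -6.78 with miRNA sequences alone, and all 8 were called under each scaling. Of the 140 let-7 sequences tested 123 were lower and 0 higher, against 46.4% lower and 18.4% higher in the whole table. The median was -7.40, or -4.31 with the 79 at their bound, beside -1.14 over all sequences. Scaled to total counts 72 were lower and 26 higher, and with miRNA sequences alone 44 were lower and 31 higher.

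Oxidation of methyltransferase RNA changed none of the 8 main sequences at the threshold. The log2 fold changes were -0.14 (SE 0.36) for let-7c-5p, -0.37 (SE 0.35) for let-7i-5p, -0.38 (SE 0.35) for let-7b-5p and -0.72 (SE 0.36) for let-7a-5p. The values of let-7e-5p and let-7d-5p were -0.88 and -0.90, that of let-7f-5p -1.09 (SE 0.36, adjusted p = 0.0724) and that of let-7g-5p -1.42 (SE 0.45, adjusted p = 0.0642). let-7f-5p was called lower without oxidized control replicate 1 (-1.12, adjusted p = 0.0205) or replicate 2 (-1.12, adjusted p = 0.0192). These signs depend on the scaling: with total counts let-7a, b, c, e and i came out positive (0.02 to 0.74), and with miRNA sequences alone let-7a, b, c and i were called higher (0.67 to 1.25). let-7g-5p was negative under every setting tried, and was called lower under 6 of them, among these DESeq2 (-1.37) and the fit of only the libraries compared (-1.19). let-7d-3p fell by a log2 fold change of -2.64 (SE 0.60, adjusted p = 0.0145), a call lost with total counts (-1.80), the upper quartile (-1.88) and miRNA sequences alone (-1.27), and without non-oxidized replicate 1 (-2.38), oxidized replicate 1 (-2.51) or oxidized replicate 2 (-2.65) of the methyltransferase groups. Among full-length sequences of other miRNAs, 68 of 123 were lower after oxidation of methyltransferase RNA, with a median of -2.06, where the 8 let-7 sequences had a median of -0.80 and 0 calls. Of all 140 let-7 sequences tested 15 were lower and 0 higher (11.2% and 1.77% in the whole table). With total counts there were 9 lower and 6 higher, with the upper quartile 10 lower and 6 higher, and with miRNA sequences alone 8 lower and 65 higher.

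For all 8 main sequences oxidation acted differently with the 2 plasmids. The interaction, the log2 change on oxidation with the methyltransferase minus that with the control plasmid, ran from 10.33 (SE 0.59, let-7b-5p) to 11.55 (SE 0.78, let-7g-5p), with adjusted p-values from 1.93e-06 to 2.3e-06 (edgeR). With total counts it ran from 6.79 to 8.0 and with miRNA sequences alone from 5.47 to 6.75, and all 8 were called. For the let-7 sequences together it was called positive for 112 of 140 let-7 sequences and negative for 0, against 39.6% and 3% in the whole table. With total counts 67 were positive and 25 negative, and with miRNA sequences alone 50 and 29. These comparisons share libraries and are not independent of each other.

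The members also shifted among themselves. let-7c-5p sequences of all lengths made up 37.65% of let-7 counts on average in non-oxidized control RNA, 41.24% in non-oxidized methyltransferase RNA and 50.92% in oxidized methyltransferase RNA, where the libraries held 49.0% and 52.8%. let-7g-5p went the other way, from 8.346% and 8.896% in non-oxidized control RNA through 6.543% and 6.508% to 3.446% and 3.268%. let-7f-5p had 9.115% and 9.327%, then 8.096% and 7.945%, then 5.313% and 5.199%. In each of these 3 members the libraries of the 3 groups did not overlap. let-7a-5p dropped from a mean of 12.76% to 10.20% on oxidation of methyltransferase RNA, and let-7d-5p from 2.416% to 1.704%, while let-7b-5p (21.67% and 22.05%) and let-7i-5p (5.769% and 5.364%) overlapped between these groups.

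A fit in which the library size was the summed let-7 counts tested the main sequence of each member. The shares over all lengths were not tested. After oxidation of methyltransferase RNA the log2 fold change relative to the family was 0.22 (SE 0.30) for let-7c-5p, -0.03 for let-7b-5p and -0.01 for let-7i-5p. It was -0.36 for let-7a-5p, -0.50 for let-7e-5p, -0.54 for let-7d-5p, -0.73 (SE 0.36) for let-7f-5p and -1.06 (SE 0.49) for let-7g-5p, whose adjusted p by edgeR was 0.195. None of the 8 main sequences of the 5′ arm was called, which does not show that they were unchanged. The fit takes its spread from all 8 libraries, oxidized control RNA included. With only the libraries compared, 2 of the 9 main sequences were lower. In the fit of all 8 libraries the only main sequence called was let-7d-3p (-2.33, SE 0.60, adjusted p = 0.0457 by edgeR). Of all sequences 7.32% were lower and 2.67% higher on this scale. That call was lost without 1 library in turn for 6 of the 8 libraries, those other than oxidized control, and with the replicate block. Between the plasmids in non-oxidized RNA the values ran from -0.44 (let-7g-5p) to 0.11 (let-7c-5p), with 0 of 9 called by edgeR and 0 at an unadjusted p under 0.05.

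**Figure D2:**
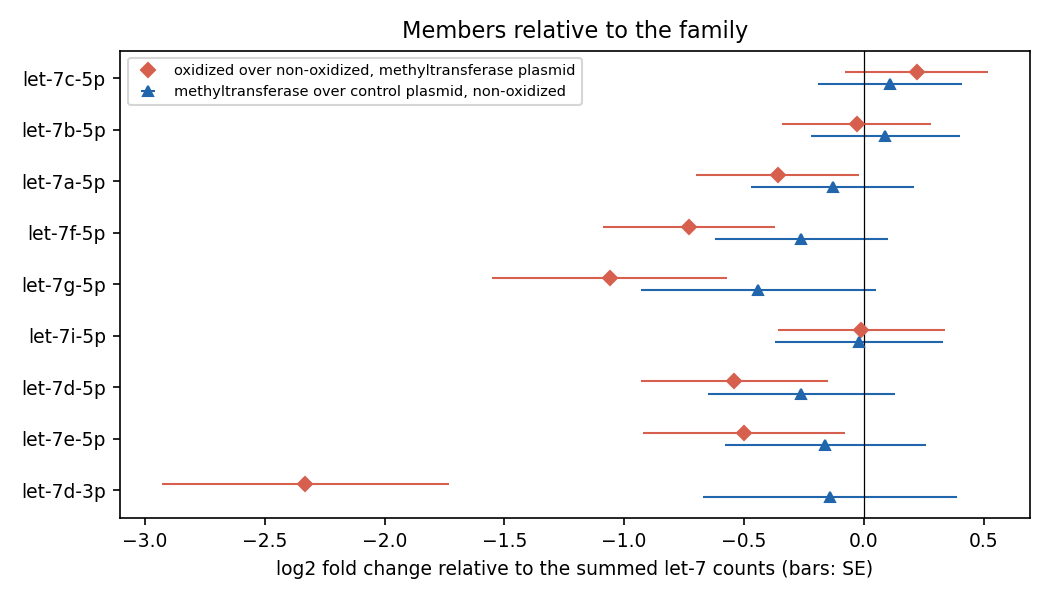
log2 fold change of each member's main sequence relative to the summed let-7 counts, with bars of 1 SE. Diamonds show oxidation with the methyltransferase plasmid and triangles the plasmids in non-oxidized RNA; let-7c-5p lies highest for oxidation (0.22) and let-7g-5p lowest of the 5′ arm (-1.06), and let-7d-3p (-2.33) alone was called.

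Oxidized control RNA held another set of lengths than the other libraries. Sequences of 22 and 23 nucleotides made up 79.9% to 81.7% of let-7 counts in the 4 non-oxidized libraries and 77.1% and 77.6% in oxidized methyltransferase RNA, but 10.1% and 13.6% in oxidized control RNA. The 36 sequences of 16 to 19 nucleotides, which lack 3 or more bases of the 3′ end where the start is canonical, made up 57.8% and 57.9% there. In non-oxidized RNA they made up 0.378% to 0.457%, and in oxidized methyltransferase RNA 0.256% and 0.377%. Other miRNAs showed the same change in direction: sequences of 16 to 19 nucleotides held 48.5% and 53.0% of their counts in oxidized control RNA and 0.919% to 1.23% elsewhere.

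**Figure D3:**
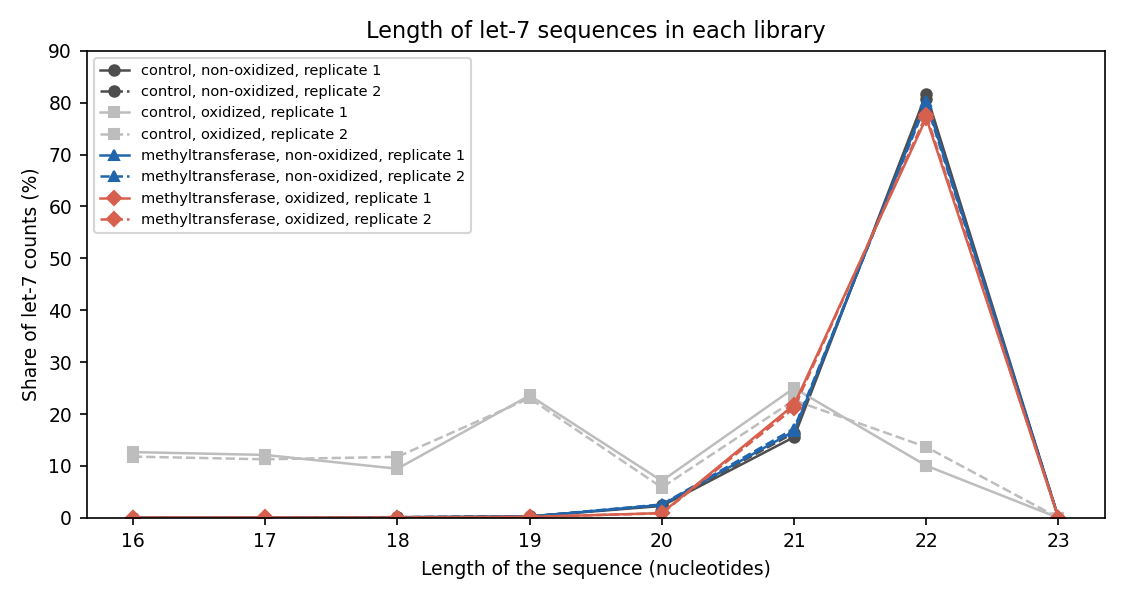
Share of let-7 counts (%) by sequence length in nucleotides, 1 line per library. The 6 libraries outside oxidized control RNA peak at 22 nucleotides; the 2 oxidized control libraries spread over 16 to 22 nucleotides, with 23.58% and 23.04% at 19 nucleotides.

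The loss on oxidation followed the length of the sequence. Among sequences that start at the mature 5′ end, the median log2 fold change on oxidation of control RNA was -11.70 at 22 nucleotides, -8.56 at 21 and -8.93 at 20, and all 8 members were lower at each of these lengths. At 19 nucleotides it was -2.20 (7 of 8 lower), at 18 -2.70 (6 of 7), at 17 -0.44 (1 of 7) and at 16 0.73 (1 of 5). These values are on the TMM scale, and the direction of the forms of 16 to 19 nucleotides turned with the scaling. With total counts all 8 members were still lower at 20, 21 and 22 nucleotides, but the medians were 2.23 at 19 (8 of 8 higher), 1.73 at 18 (4 of 7 higher), 4.01 at 17 (7 of 7 higher) and 5.14 at 16 (5 of 5 higher). With miRNA sequences alone 8, 6, 7 and 5 sequences were higher at 19, 18, 17 and 16 nucleotides, and 6 of 8 were lower at 20. The shortest forms can no longer be given to 1 member, and some match the genome outside the let-7 places given above. The 16-mer shared by let-7a, b and c had 8 genomic matches, the let-7e 16-mer 7 and the let-7f 16-mer 4. Each number exceeds the places of the members named, and how many of these reads came from elsewhere was not tested. The 16-mer tgaggtagtaggttGT, printed as DNA with its last 2 bases in capitals, is shared by let-7a, b and c. It had 291 and 275 counts before and 816 and 440 after oxidation of control RNA, and 175 and 197 before and 426 and 402 after oxidation of methyltransferase RNA. Per listed count it rose from 54.0 and 41.4 CPM to 1861 and 1491 CPM on oxidation of control RNA, and stood at 137 and 164 CPM in oxidized methyltransferase RNA. Under TMM scaling neither its change on oxidation of control RNA (0.73, SE 0.37, adjusted p = 0.101 by edgeR) nor that of methyltransferase RNA (0.91, SE 0.37, adjusted p = 0.146) was called. With total counts both were called higher (5.14, adjusted p = 2.44e-05, and 1.78, adjusted p = 0.0138). The 17-mer tgaggtagtaggttgTA of let-7a and c had 527 and 326 counts in oxidized control RNA against 156 and 228 before oxidation, and the 16-mer tgaggtagtagtttGT of let-7g and i 62 and 35 against 72 and 98. The shared 18-mer tgaggtagtaggttgtAT of let-7a and c, with 887 and 1172 counts before and 228 and 181 after oxidation of control RNA, was lower with both plasmids (-2.70 and -1.93, adjusted p = 0.000195 and 0.00948 by edgeR). With total counts it was called higher on oxidation of control RNA (1.73, adjusted p = 0.00369) and was not called with the methyltransferase (-1.05, adjusted p = 0.0967).

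In oxidized RNA the plasmids differed for the longer forms. All 8 members were higher with the methyltransferase at 22 nucleotides (median log2 fold change 10.53), at 21 (7.53) and at 20 (4.18). At 19 nucleotides 3 of 8 were called higher (median 0.80), and at 18, 17 and 16 none of the 7, 7 and 5 sequences was called (medians 0.03, -0.12 and -0.39, with 0, 1 and 0 higher at an unadjusted p under 0.05). With total counts all 8 members were again higher at 22 and 21 nucleotides, but 4 of 8 at 20, and 7 of 8 were lower at 19, 7 of 7 at 18, 6 of 7 at 17 and 5 of 5 at 16. With miRNA sequences alone 1 member was higher and 1 lower at 20, and 8, 7, 6 and 5 sequences were lower at 19, 18, 17 and 16.

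Under TMM scaling the interaction was called positive for all 8 members at 22, 21 and 20 nucleotides, for 5 of 8 at 19 and for none below. With total counts and with miRNA sequences alone it was positive for all 8 at 22 and at 21 nucleotides. At 20 nucleotides it was then positive for 3 and for 0 members, with 0 and 1 negative. At 19 nucleotides 7 and 8 were negative, at 18 6 and 7, at 17 6 and 6, and at 16 5 and 5. Calls on forms shorter than 21 nucleotides in comparisons with oxidized control RNA thus depended on the scaling, while all 8 members at 21 and at 22 nucleotides were called in the same direction under each scaling tried.

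**Figure D4:**
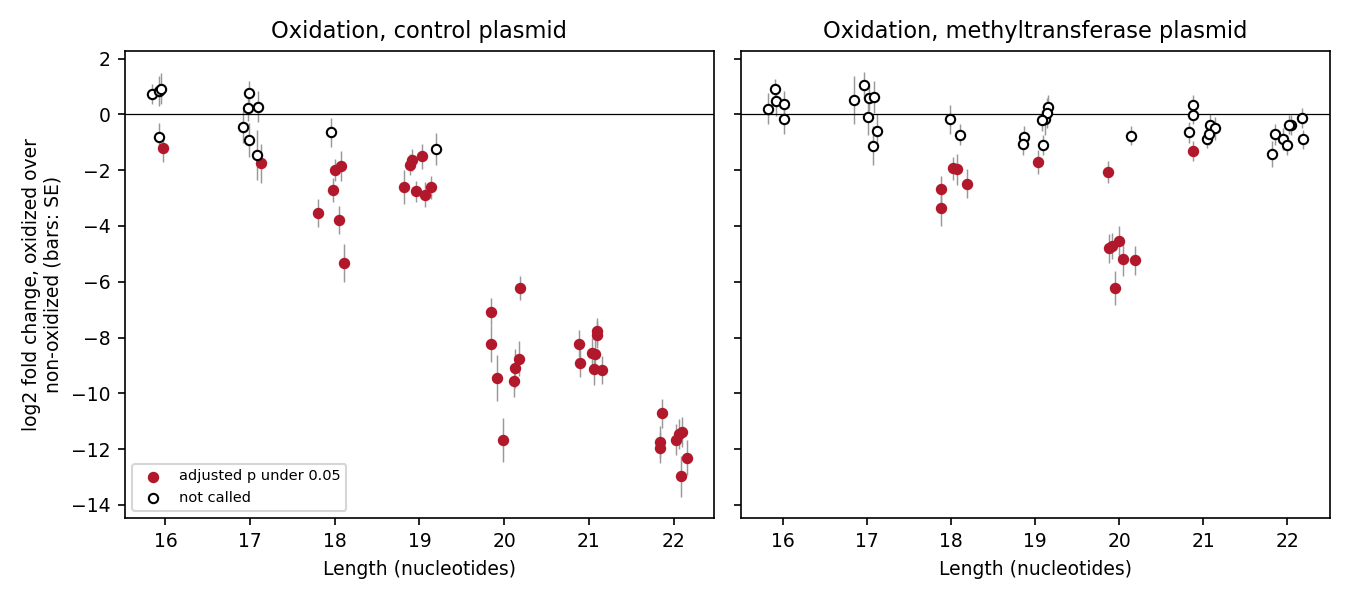
log2 fold change on oxidation (bars: SE) of each let-7 sequence with the mature 5′ start, by length in nucleotides, for the control plasmid and the methyltransferase plasmid; filled points were called at an adjusted p under 0.05 (edgeR, TMM scaling). With the control plasmid the values fall from near 0 at 16 and 17 nucleotides to -10.72 and below at 22; with the methyltransferase they stay between -1.42 and -0.14 at 22 nucleotides, and the 20-nucleotide forms lie lowest.

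The 20-nucleotide forms stood apart from this order. They are the mature sequences without the last 2 bases, printed as DNA, with the bases that are then last in capitals.
let-7a-5p: tgaggtagtaggttgtatAG
let-7b-5p: tgaggtagtaggttgtgtGG
let-7c-5p: tgaggtagtaggttgtatGG
let-7d-5p: agaggtagtaggttgcatAG
let-7e-5p: tgaggtaggaggttgtatAG
let-7f-5p: tgaggtagtagattgtatAG
let-7g-5p: tgaggtagtagtttgtacAG
let-7i-5p: tgaggtagtagtttgtgcTG
After oxidation of methyltransferase RNA 7 of these 8 were lower (6 in a fit of miRNA sequences alone or without oxidized methyltransferase replicate 2), with a median of -4.75, while at 22 and 21 nucleotides the medians were -0.80 and -0.57. The pattern was noticed in the data. The 20-nucleotide form of let-7g-5p fell most, from 2004 and 2851 counts to 49 and 29 (log2 fold change -6.23, SE 0.60, adjusted p = 4.45e-05 by edgeR). The let-7a-5p form fell from 4656 and 7293 counts to 341 and 209 (-4.71, SE 0.46, adjusted p = 4.76e-05). The forms of let-7f (-5.23), let-7d (-5.17), let-7e (-4.80) and let-7i (-4.55) lay in the same range. In all of these the 2 groups were far apart.

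let-7b and let-7c, whose 20-nucleotide forms end in GG where the others end in AG or TG, kept more of them. The let-7b-5p form went from 11702 and 15576 counts to 4878 and 2996 (-2.07, SE 0.39, adjusted p = 0.00422 by edgeR). The let-7c-5p form went from 8814 and 12997 counts to 8490 and 6755, and was not called (-0.77, SE 0.34, adjusted p = 0.187). Relative to the let-7 sum the values were -5.87 for let-7g, -1.71 for let-7b (adjusted p = 0.036) and -0.40 for let-7c (adjusted p = 0.512), again with 7 of 8 called lower. The authors' deposited table has the same order: the non-oxidized over oxidized fold with the methyltransferase was 71.4 for the let-7g form, 37.2 for let-7f, 34.4 for let-7d, 26.5 for let-7e, 24.7 for let-7a, 21.97 for let-7i, 3.99 for let-7b and 1.64 for let-7c. In oxidized control RNA these forms held few counts, 247 and 174 for let-7c at most and 0 and 1 for let-7e.

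Set against the 22-nucleotide form of the same member, the 20-nucleotide form does not depend on any scaling between libraries. In non-oxidized RNA of both plasmids it amounted to between 1.676% (let-7f) and 6.745% (let-7e) of the 22-nucleotide form. For let-7g-5p it was 2.784% and 2.825% in non-oxidized and 0.115% and 0.0841% in oxidized methyltransferase RNA, a 28.2-fold drop of the mean. The drop was 19.1-fold for let-7d, 18.2-fold for let-7i, 17.6-fold for let-7f, 15.7-fold for let-7a and 14.8-fold for let-7e. It was 3.23-fold for let-7b, from 5.339% and 5.274% to 1.737% and 1.548%, and 1.54-fold for let-7c, from 1.964% and 2.003% to 1.327% and 1.251%. The groups did not overlap in any of the 8 members, and each exact two-sided permutation p was 0.33, the smallest that 2 against 2 allow. At 21 nucleotides the groups did not overlap in 7 of 8 members either. A lack of overlap alone thus does not set the 20-nucleotide forms apart.

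The 21-nucleotide forms, 1 base longer and ending in GT in all 8 members, did not share this drop. As a percentage of the 22-nucleotide form they were higher in oxidized than in non-oxidized methyltransferase RNA for 6 of 8 members, by 1.2-fold (let-7e) to 1.63-fold (let-7g), with no overlap. let-7c-5p rose in this measure from 17.33% and 18.11% to 24.88% and 25.14%. For let-7d-5p the groups overlapped. let-7i-5p alone went down, from 9.876% and 9.319% to 5.109% and 4.810%, and its 21-nucleotide form was the only one of 8 called lower (-1.31, SE 0.35, adjusted p = 0.0305 by edgeR). Next to the other members let-7i already had the lowest share of this form before oxidation. Below 20 nucleotides the calls were mixed: 5 of 7 sequences of 18 nucleotides were lower after oxidation of methyltransferase RNA (median -1.97), 1 of 8 of 19 nucleotides (let-7g, -1.71) and none of 17 or 16.

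**Figure D5:**
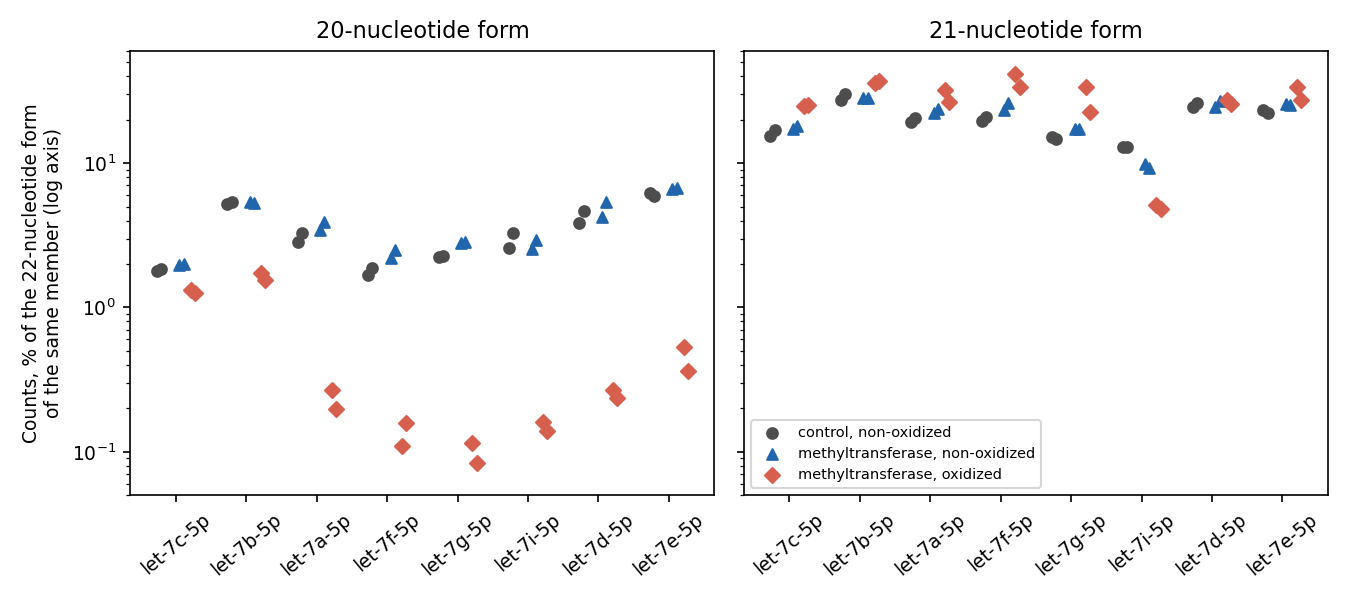
Counts of the 20-nucleotide form (left) and the 21-nucleotide form (right) as a percentage of the 22-nucleotide form of the same member (log axis), 1 point per library, without oxidized control RNA. The 20-nucleotide form drops on oxidation of methyltransferase RNA in all 8 members, least in let-7c-5p (1.54-fold) and let-7b-5p (3.23-fold), while the 21-nucleotide form drops in let-7i-5p only.

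Other miRNAs that were 2 bases short of their RefSeq 3′ end were also lower, in 38 of 54 sequences, with a median of -2.53 against -4.75 for the 8 let-7 forms. Their full-length and 1-base-short sequences had medians of -2.06 and -1.99. The 8 full-length let-7 sequences had -0.80. The difference between the families was not tested.

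Under TMM scaling most variants tested at the 5′ end were called higher with the methyltransferase in oxidized RNA, as the full-length forms were. The full-length forms were called under each scaling tried, but calls for these variants as a class are given for TMM only. Of all let-7 sequences tested, 113 of 140 were higher and 0 lower under TMM. With total counts 82 of 140 were higher (26 lower), and with miRNA sequences alone 62 of 141 (29 lower). For the let-7b and let-7c forms named below whose first base was not read, lower bounds were 62.6-fold and 157-fold under TMM. Per listed count they were 7.66-fold and 19.3-fold. Of the 154 let-7 sequences 52 had the canonical start, and these held 98.25% to 99.15% of let-7 counts in each library. A further 69 differed in the first base, 23 were shorter and 9 longer at the 5′ end, and 1 was both shorter and changed. Under TMM scaling 61 of the 64 tested with another first base were higher with the methyltransferase in oxidized RNA, beside 42.3% of all sequences tested. Both oxidized control libraries held 3 counts or fewer for 55 of the 64, and with those at their bound the median fell from 7.56 to 4.84 (log2). A 19-nucleotide form (-0.06) and a 20-nucleotide form (1.37, adjusted p = 0.214 by edgeR) of let-7b were among those not called. On oxidation of methyltransferase RNA 0 of the 64 were called, with a median of 0.17. Without adjustment 3 were higher and 4 lower at p under 0.05, beside 848 higher and 1686 lower of all 9851 sequences tested. All 17 tested sequences with a shortened 5′ end were higher with the methyltransferase in oxidized RNA. Both oxidized control libraries held 3 counts or fewer for 15 of these 17, and with those at their bound the median was 4.12 (log2, TMM scaling). The 6 tested with an extended 5′ end were also called higher, but all 6 were at their bound, with a median of 1.4 on that scale. Their median on oxidation of methyltransferase RNA was -1.3, with 0 called. Among let-7 sequences with a mean of at least 50 counts in non-oxidized methyltransferase RNA (85 of 154), the 3 with the most positive change on its oxidation were all of the first kind. They were ggaggtagtaggttgtatgGT of let-7c (1.51), ngaggtagtaggttgtgtggTT of let-7b (1.22) and ngaggtagtaggttgtatggTT of let-7c (1.18), where n is a base that was not read, and none was called. The last of these had 294 and 25 counts in the replicates of non-oxidized methyltransferase RNA and 148 and 34 in those of non-oxidized control RNA, a spread not seen in the main sequences.

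Annotation cannot always separate members from misread bases. The form tgaggtagtaggttgcatagTT, annotated as let-7d, is 1 substitution from both let-7d-5p and let-7a-5p. It had 1544 and 2221 counts before and 1 and 1 after oxidation of control RNA, and 1199 and 1948 before and 2539 and 1490 after oxidation of methyltransferase RNA. In all, 27 let-7 sequences lay 1 substitution from the sequences of 2 or more members of the 5′ arm, in some cases including their own. Sequences 1 substitution from only 1 member were not counted. Around each 22-nucleotide main sequence 44 to 64 listed sequences without a let-7 name lay 1 substitution away. Outside oxidized control RNA they summed to 7.29% to 35.7% of the main sequence, and the highest single one reached 0.659% to 8.23% of it. let-7a-5p is 1 substitution from let-7c-5p, the most abundant member, and a let-7c read with that base misread would be counted as let-7a; how often this happened was not tested.

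miRNAs that share the seed or the genomic clusters of let-7 were set beside it. miR-98-5p, which has the let-7 seed and lies next to let-7f on the X chromosome, was higher with the methyltransferase in oxidized RNA (8.92, adjusted p = 1.78e-06 by edgeR) and was not called on oxidation of methyltransferase RNA (-0.87, adjusted p = 0.278). Of the cluster partners miR-99a, miR-99b, miR-125a and miR-125b, all 4 were called higher with the methyltransferase in oxidized RNA. The values given are for the main sequence of each. All 5 listed sequences of miR-125a-5p together held 25 and 11 counts in the oxidized control libraries. Each of the 4 main sequences had 3 counts or fewer in both oxidized control libraries, so their folds are lower bounds against 3 counts per library. These ran from at least 38.3-fold higher (miR-125b-5p) to at least 192-fold higher (miR-125a-5p) under TMM scaling, and from 4.70-fold to 23.5-fold per listed count. On oxidation of methyltransferase RNA miR-99b-5p fell most (-4.45, adjusted p = 4.01e-05), followed by miR-125b-5p (-2.63, adjusted p = 0.00295) and miR-99a-5p (-2.32, adjusted p = 0.0175), while miR-125a-5p was not called (-0.95, adjusted p = 0.181). No listed sequence carried the name miR-100-5p. Across the 8 libraries, the main sequences of other miRNAs with the pattern nearest to let-7c-5p were miR-423-5p, miR-129-5p and miR-7b-5p, among 170 compared. Their root mean square distances were 0.426, 0.525 and 0.528 on the centred log2(CPM + 1) scale, with CPM here taken from TMM-scaled library sizes. In oxidized control RNA miR-423-5p had 0 and 0 counts and miR-129-5p 0 and 5, so their distances depend on the added 1. let-7 members lay at 0.277 (let-7i-5p) to 0.753 (let-7g-5p) by the same measure, and let-7d-3p at 3.48.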

How the data were processed

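Small RNA libraries were made from 5 ng of total RNA with the QIAseq miRNA kit, per the labels' protocols. The deposited table gives, per the file headers, a count for each distinct read sequence in each of the 8 libraries. It also holds the authors' normalized signal (counts divided by 1 size factor per library), the authors' regularized log2 values, a deposited signed fold change (a score: positive and negative values mark the 2 directions), and the authors' adjusted p-value for 2 comparisons. Aligner, build, trimming and the use of molecular identifiers are not given in the sources used here. The normalized signal and log2 values were not used.

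The 12608 lines were merged to 11568 distinct sequences, and no count column was left unmapped. The fits used edgeR 4.0.16 with R 4.3.3 (TMM scaling, filterByExpr, quasi-likelihood test) in 1 model of 4 groups and 5 contrasts. Adjusted p-values are Benjamini-Hochberg over the 9851 sequences tested, with calls under 0.05. The fit relative to let-7 used the summed let-7 counts as library size, without TMM. Shares were compared by exact permutation tests. Main sequences, sequences with several let-7 names, and the 3 highest and 3 lowest changes on oxidation of methyltransferase RNA (mean of at least 50 counts) were named by rule; 20-nucleotide forms and the sequence shared in part by let-7a and let-7d were chosen after their values were seen. The members and lists were chosen with earlier results of these data known.

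Mature sequences and loci came from RefSeq (GRCm38.p6); all 9 names matched, and the let-7a copy on chromosome 9 was placed by its match in the hairpin. On simulated counts for oxidation with the methyltransferase plasmid (7731 sequences tested), 117 of 172 sequences changed 8-fold were called (68%), with 11 unchanged ones. Alternatives were other scalings, filters, DESeq2 1.42.0, fewer libraries, miRNA sequences alone, counts summed by name, a replicate block and leaving out each library.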

Additional observations from a re-analysis of the deposited data

Results flagged for a closer look

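For 15 named let-7 sequences oxidation acted differently with the 2 plasmids, by a test of the interaction (edgeR, adjusted p under 0.05). Values are the log2 change on oxidation with the methyltransferase plasmid minus that with the control plasmid. For the main sequences the interaction was 11.01 for let-7a-5p, 10.33 for let-7b-5p, 11.52 for let-7c-5p, 10.57 for let-7d-5p, 11.42 for let-7e-5p, 10.85 for let-7f-5p, 11.55 for let-7g-5p and 11.02 for let-7i-5p. let-7d-3p had 6.34, a fitted value that rests on 0 counts in oxidized control RNA and is no bound. Its call was lost with total counts (adjusted p = 0.087) and with miRNA sequences alone (adjusted p = 0.272). The 20-nucleotide forms had smaller values, 2.88 for let-7g-5p, 3.52 for let-7f-5p and 4.28 for let-7d-5p. None of these 3 was called with total counts (-0.64, -0.01 and 0.81), where the first 2 turned sign; with miRNA sequences alone they were -2.05 (called negative, adjusted p = 0.0471), -1.31 and -0.61. The forms with another first base had 4.67 for the 21-nucleotide form of let-7c-5p, 7.02 for the 22-nucleotide form of let-7b-5p and 8.71 for that of let-7c-5p. The last 2 had 1 count or fewer in each oxidized control library, so these values depend on the prior count. With total counts the 3 were 1.15, 3.63 and 5.46, and with miRNA sequences alone -0.11, 2.39 and 4.26, and none was called under either.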

How the results depend on the processing

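There were 19 alternatives. Against TMM, total counts moved the median of all sequences by -2.99 between the plasmids in oxidized RNA, by 4.34 on oxidation of control RNA, by 0.87 on oxidation of methyltransferase RNA and by -3.50 in the interaction (log2); the upper quartile moved it by -0.89, 1.74, 0.77 and -1.02, and DESeq2 size factors by 0.19, -0.42, 0.02 and 0.41. With total counts, let-7 sequences lower in oxidized methyltransferase RNA against control were 26, higher on oxidation of control RNA 26 (lower 72), higher on oxidation of methyltransferase RNA 6 (lower 9), and the interaction gave 67 positive and 25 negative. With the upper quartile the counts were 4 lower between plasmids, 6 higher on oxidation of control RNA and 6 higher on oxidation of methyltransferase RNA. With miRNA sequences alone there were 62 higher and 29 lower between plasmids, 31 higher and 44 lower on oxidation of control RNA, 65 higher and 8 lower with the methyltransferase, and an interaction of 50 positive and 29 negative. With at least 10 counts in every library only 39 let-7 sequences were tested, which gave 19 higher between plasmids, 29 lower on oxidation of control RNA, 5 lower with the methyltransferase, 17 positive interactions and 1 of 2 20-nucleotide forms lower. Counts summed by name left 12 features, of which 9 were higher between plasmids, 11 and 2 lower on oxidation with the control and methyltransferase plasmids, and 9 had a positive interaction.

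Leaving out 1 library at a time gave 114 to 122 sequences higher between plasmids, 122 to 131 lower on oxidation of control RNA, 9 to 18 lower and 0 to 4 higher on oxidation of methyltransferase RNA (9 lower without oxidized methyltransferase replicate 1, 4 higher without non-oxidized methyltransferase replicate 1), 104 to 115 positive interactions and 6 to 7 lower 20-nucleotide forms. The change of the let-7 share of miRNA counts on oxidation of control RNA, 1.851 percentage points, ran from -2.248 to 5.95 and was -2.248 without oxidized control replicate 1; over all listed counts it was -32.87, and for main sequences alone -36.41. Relative to the let-7 sum, the 1 lower call on oxidation of methyltransferase RNA became 0 to 1 without 1 library, 0 without let-7c-5p in the sum, 0 with no filter and 2 with only the libraries compared; the cause was not tested.

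Small differences of main sequences changed sign. On oxidation of methyltransferase RNA, total counts gave 0.16 for let-7a, 0.50 for let-7b, 0.74 for let-7c, 0.02 for let-7e and 0.51 for let-7i; the upper quartile gave 0.05, 0.40, 0.64 and 0.42 for let-7a, b, c and i. miRNA sequences alone gave 0.67 for let-7a, 1.01 for let-7b, 1.25 for let-7c, 0.49 for let-7d, 0.52 for let-7e, 0.30 for let-7f and 1.02 for let-7i. For let-7c it was 0.03 with the filter of 10 counts, 0.08 with only the libraries compared and -0.35 to 0.03 without 1 library in turn (0.03 without non-oxidized methyltransferase replicate 2). Between plasmids in non-oxidized RNA, total counts gave 0.21, 0.23 and 0.10 for let-7b, c and i, and miRNA sequences alone 0.17, 0.40, 0.41, 0.04, 0.16, 0.04 and 0.28 for let-7a, b, c, d, e, f and i, and 0.11 for let-7d-3p. Between plasmids in oxidized RNA 166 of 168 values of main sequences kept their direction and call, on oxidation of control RNA 168 of 169 and in the interaction 158 of 160; the exceptions were let-7d-3p, whose call was lost.

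Replicate numbers do not pair these libraries in the labels, and the deviations of same-numbered libraries correlated at -0.031 to 0.379. With the replicate block the let-7 counts were 113 higher between plasmids, 125 lower on oxidation of control RNA, 16 lower with the methyltransferase and 112 positive interactions, the block called let-7g-5p lower on oxidation with the methyltransferase (-1.39), and relative to the let-7 sum it left 0 lower calls. Depth limits the oxidized control libraries: 93 of 154 let-7 sequences had 3 counts or fewer in both.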
